A study of Danio rerio with 4 samples.

Results

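The melanophore pigment genes are a set of 10 zebrafish genes chosen by symbol: the regulator mitfa, the melanin enzymes tyr, tyrp1a, tyrp1b and dct, the melanosome structure genes pmela and pmelb, and the melanosome transport genes oca2, slc45a2 and slc24a5. All 10 were found as single rows among the 27472 genes of the deposited table, each under the same symbol as in the set. RNA came from zebrafish (Danio rerio) of strain AB at 72 hours post fertilization (hpf). Treatment began at 4 hpf, with either dimethyl sulfoxide (DMSO, the solvent control) or 4 µM bisphenol C (BPC, a bisphenol), and each group had 2 libraries, numbered 1 and 3. The labels name no organ, so values are read here as those of whole fish. Neither the number of larvae per library, nor their clutches, nor any chemical block of melanin synthesis is stated, so p-values cover only the spread between these particular libraries, part of which may be technical.

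Melanophores are the black pigment cells of the zebrafish, and they arise from the neural crest. They make melanin inside melanosomes, where a fibrous scaffold forms first, tyrosinase and its relatives then turn tyrosine into melanin, and channels and exchangers in the melanosome membrane set the conditions in which the enzymes work. Mitfa is the transcription factor that zebrafish need to form body melanophores. The retinal pigment epithelium (RPE) of the eye also makes melanin, with many of the same genes, so whole-larva values do not separate the skin from the eye. In such bulk RNA, fewer or more cells of a type and less or more RNA per cell cannot be told apart.

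Pigment transcripts were higher in BPC larvae, with 1 exception. Of the 10 members, 9 rose and 0 fell on BPC with limma at an adjusted p under 0.05. Over the 19873 tested genes, 7.06% were called higher and 17.5% lower. The members were chosen with earlier results of these data known, so the gap between these shares is no test of the set. The exception was mitfa, the regulator, whose libraries overlapped between groups. For the other 9, both BPC libraries lay above both DMSO libraries, a pattern shown by 19.3% of the 26929 genes above 0 in any library. Levels are given in FPKM (fragments scaled to transcript length and to the fragments of the library), which allows genes of different length to be compared, and changes are differences in log2(FPKM + 1), a scale that understates the change of genes near or below 1 FPKM. The median change of the 10 members was 1.28, against -0.12 for all tested genes. All members passed the filter on low values (at least 0.5 FPKM in at least 2 libraries), and 9 of the 10 reached 0.5 FPKM in all 4 libraries.

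**Figure D1:**
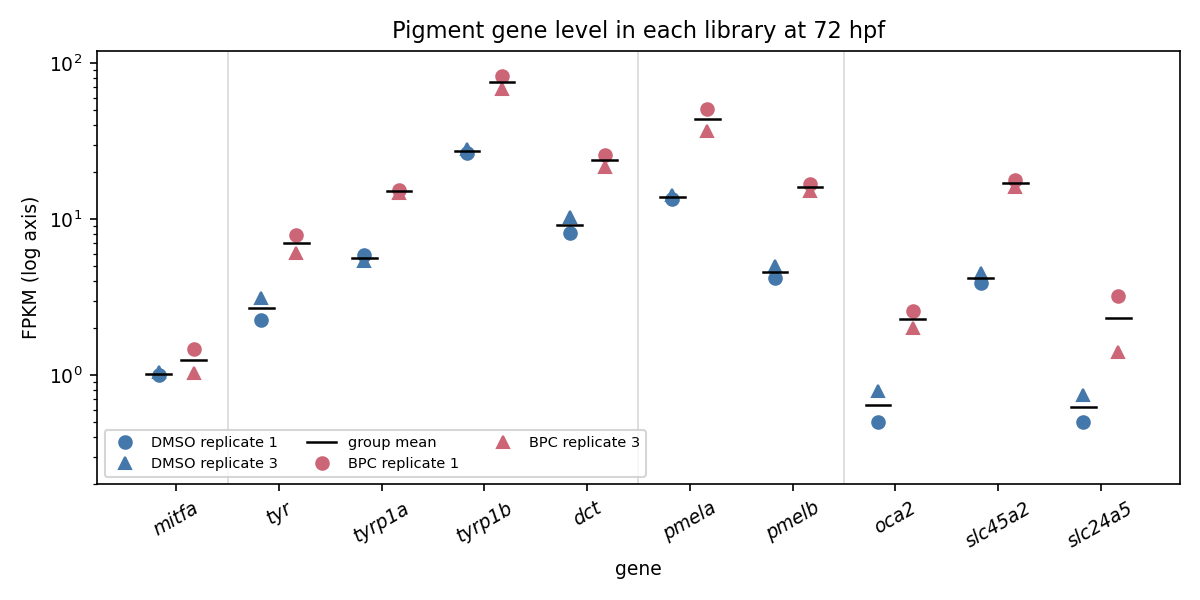
FPKM of each of the 10 genes (log axis) in each library, with DMSO in blue, BPC in red, circles for replicate 1, triangles for replicate 3 and bars for group means; grey lines part the regulator, enzymes, structure and transport genes. The 2 BPC points lie above the 2 DMSO points for every gene except mitfa, where BPC replicate 3 lies between the DMSO libraries.

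The regulator mitfa was measured at 0.997 and 1.04 FPKM in DMSO replicates 1 and 3 and at 1.46 and 1.03 in BPC replicates 1 and 3. Only BPC replicate 1 stood above the controls, and BPC replicate 3 fell between them. The log2 change was 0.15 (SE 0.15, 95% interval -0.21 to 0.51, limma adjusted p = 0.496), so a change was not detectable with these libraries. The interval allows both a small fall and a rise of up to 0.51 on this scale, which understates changes near 1 FPKM. The ratio of mean FPKM was 1.23. With a pseudocount of 0.1 FPKM the log2 change was 0.25 (SE 0.27, limma adjusted p = 0.52), a wider range. In DMSO, 88.5% of tested genes had a higher level than mitfa, so its value rests on little signal. The part of this low level in the missing call was not tested.

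Among the melanin enzymes, tyr encodes tyrosinase, which carries out the first and rate-limiting step from tyrosine. Its level was 2.24 and 3.14 FPKM in DMSO and 7.90 and 6.09 in BPC. The groups did not overlap, the lowest BPC library being 1.94 times the highest DMSO library. The mean rose 2.60-fold in FPKM, and the log2 change was 1.12 (SE 0.18, limma adjusted p = 0.009).

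The tyrosinase-related proteins act after tyrosinase in the making of black melanin, and zebrafish carry a pair of tyrp1 genes. In each library tyrp1b was the most abundant of the 10 genes, at 26.6 and 28.3 FPKM in DMSO and 82.2 and 68.7 in BPC. It made up 40.1 and 38.5% of the summed FPKM of the members in DMSO and 36.6 and 37.4% in BPC. Its mean rose 2.75-fold and its log2 change was 1.42 (SE 0.12, limma adjusted p = 0.00209). The paralogue tyrp1a stood at 5.92 and 5.39 FPKM in DMSO and 15.5 and 14.8 in BPC, the tightest BPC pair among the members. Its mean rose 2.67-fold and its log2 change was 1.28 (SE 0.11, limma adjusted p = 0.00211). The ratio of tyrp1b to tyrp1a was 4.50 and 5.25 in DMSO and 5.32 and 4.65 in BPC, so the balance of the pair overlapped between groups while both genes rose. How reads shared by the paralogues were counted is not stated, so the split between them is uncertain.

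Dopachrome tautomerase, encoded by dct, acts on the dopachrome formed downstream of tyrosinase. Its level was 8.14 and 10.3 FPKM in DMSO and 25.9 and 21.6 in BPC, with no overlap. The mean rose 2.58-fold and the log2 change was 1.28 (SE 0.15, limma adjusted p = 0.00412). The 4 enzyme genes thus had close fold changes, from 2.58 to 2.75 in mean FPKM. Within a library their proportions to tyr overlapped between groups, as tyrp1b over tyrp1a did: dct over tyr was 3.63 and 3.27 in DMSO and 3.28 and 3.55 in BPC, and tyrp1b over tyr was 11.9 and 9.01 in DMSO and 10.4 and 11.3 in BPC.

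The premelanosome proteins form the fibrils on which melanin is laid down. The level of pmela was 13.4 and 14.3 FPKM in DMSO and 51.1 and 36.9 in BPC, which gave it rank 2 among the members in every library. Its mean rose 3.18-fold and its log2 change was 1.58 (SE 0.16, limma adjusted p = 0.00292). For pmelb the values were 4.19 and 4.99 FPKM in DMSO and 16.8 and 15.1 in BPC. Both BPC libraries were at least 3.02 times either control, the mean rose 3.47-fold and the log2 change was 1.60 (SE 0.13, limma adjusted p = 0.00174). The ratio of pmela to pmelb, 3.19 and 2.86 in DMSO and 3.04 and 2.45 in BPC, overlapped between groups.

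Transport genes held both the largest change on the log2 scale and the least certain one. The gene slc45a2 encodes a melanosomal transporter whose loss gives zebrafish albino mutants. It was measured at 3.91 and 4.53 FPKM in DMSO and 17.8 and 16.0 in BPC. The lowest BPC value was 3.54 times the highest control, and slc45a2 moved from rank 6 among the members in both DMSO libraries to rank 4 in both BPC libraries. The mean rose 4.01-fold, and the log2 change of 1.78 (SE 0.12, limma adjusted p = 0.00118) was exceeded by 0.418% of all tested genes.

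The other transport genes were rare transcripts. The gene oca2, which encodes a melanosomal ion transport protein, was at 0.502 and 0.792 FPKM in DMSO and 2.59 and 2.00 in BPC. The groups did not overlap, the mean rose 3.55-fold and the log2 change was 1.0 (SE 0.16, limma adjusted p = 0.00964). Without DMSO replicate 1 the oca2 call was lost (log2 change 0.87, limma adjusted p = 0.0647).

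The cation exchanger slc24a5, the gene of the zebrafish golden mutant, was at 0.499 and 0.748 FPKM in DMSO and 3.23 and 1.40 in BPC. Both BPC libraries lay above both controls, but they differed 2.32-fold from each other, the widest BPC pair among the members. The mean rose 3.71-fold and the log2 change was 0.98 (SE 0.27, limma adjusted p = 0.0431). This call was lost without DMSO replicate 1 (log2 change 0.87, adjusted p = 0.154), without DMSO replicate 3 (1.09, adjusted p = 0.0774), without BPC replicate 1 (0.57, adjusted p = 0.0748) and with no filter on low values (0.98, adjusted p = 0.112), all with limma.

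**Figure D2:**
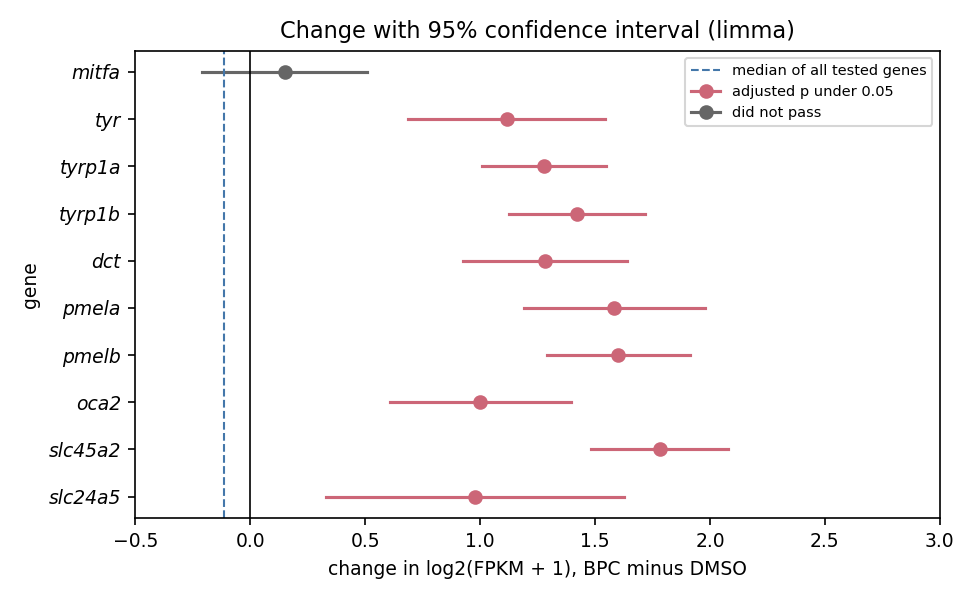
Change in log2(FPKM + 1), BPC minus DMSO (x axis), with its 95% confidence interval from limma, for each of the 10 genes (y axis); red marks an adjusted p under 0.05 and the dashed line the median of all tested genes, -0.12. The interval of mitfa spans 0, and the other 9 intervals lie above 0, that of slc24a5 reaching down to 0.33.

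The distance between mitfa and the other members was tested by itself, in a comparison added after the values had been seen. The level of mitfa was subtracted from that of every gene in the same library on the log2 scale, and limma was fitted to the differences of all 19872 other tested genes. All 9 other members rose relative to mitfa, where 3.28% of genes did. The difference from mitfa was largest for slc45a2 (1.63, SE 0.15, limma adjusted p = 0.00169) and smallest for slc24a5 (0.83, SE 0.23, limma adjusted p = 0.0473). Since mitfa is near the pseudocount of 1 FPKM, the fit was repeated with 0.1 FPKM. All 9 again passed (2.07% of genes), with differences from 1.10 for tyr to 1.73 for slc45a2. In both fits all 9 differences share the same mitfa values, so they are not independent of each other. The spread of mitfa between libraries enters the difference of every gene, so these p-values may be too small. Without DMSO replicate 1, 6 of the 9 passed (not tyr, oca2 or slc24a5; 1.76% of genes). Without DMSO replicate 3, 7 passed (not oca2 or slc24a5; 1.82%). Without BPC replicate 1, 8 passed (not slc24a5; 6.16%), and without BPC replicate 3 all 9 did (5.14%).

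Ratios to mitfa in plain FPKM, without the pseudocount of these fits, are on another scale and were as follows. The level of tyr was 2.25 and 3.01 times that of mitfa in DMSO and 5.39 and 5.89 times in BPC. For pmela the ratio was 13.4 and 13.7 in DMSO and 34.9 and 35.7 in BPC, and for slc45a2 it was 3.92 and 4.35 in DMSO and 12.2 and 15.5 in BPC. All 9 genes had both BPC ratios above both DMSO ratios, as did 8.42% of the 26928 genes other than mitfa that were above 0 in any library. The gene oca2 lay below mitfa in both controls (0.503 and 0.761) and above it in both BPC libraries (1.77 and 1.94).

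**Figure D3:**
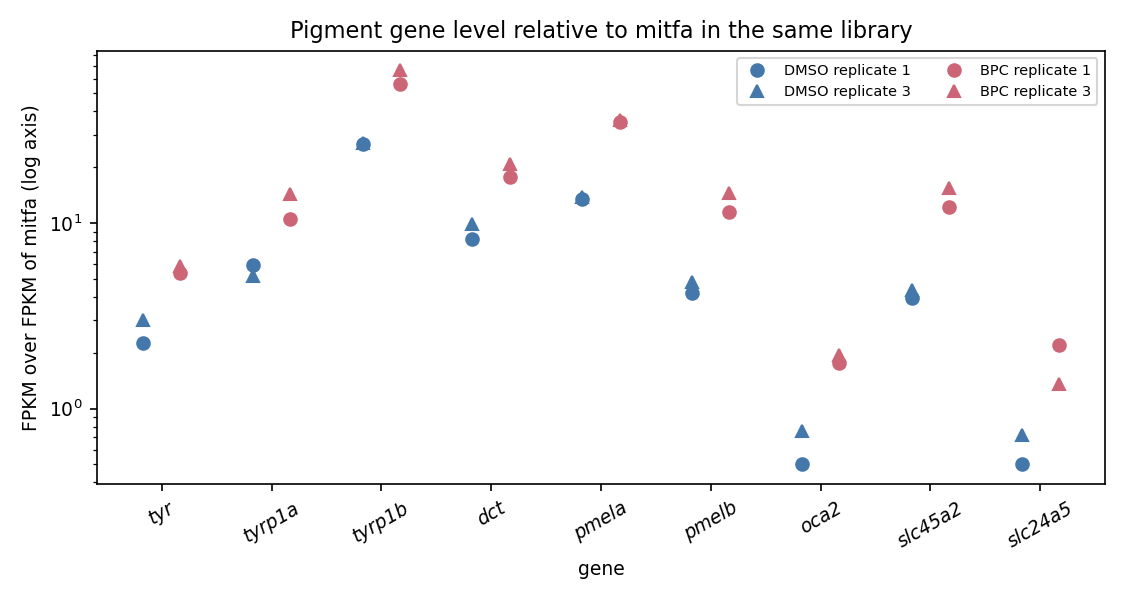
FPKM of each of the other 9 genes divided by the FPKM of mitfa in the same library (log axis), with DMSO in blue, BPC in red, circles for replicate 1 and triangles for replicate 3. Each gene has both BPC points above both DMSO points, as 8.42% of all genes other than mitfa do, and oca2 and slc24a5 pass from below 1 to above 1.

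As a group, the 10 genes summed to 66.4 and 73.5 FPKM in DMSO and to 224 and 184 in BPC, a 2.92-fold difference of the means. Their share of all FPKM was 0.0187 and 0.0207% in DMSO and 0.0532 and 0.0431% in BPC. FPKM totals themselves differed, 355583 and 355364 in DMSO against 422245 and 425611 in BPC, and after scaling each library to the same total the ratio of the summed members was 2.45. Scaling moved the median change of all tested genes by 0.15 with median centring, 0.14 with quantile normalization and -0.25 with equal totals. The same 9 members were called higher under each of these 3 scalings, where 12.3, 9.8 and 3.82% of tested genes were in turn, and mitfa under none. With no filter on low values 8 members were called (2.78% of genes). Leaving out 1 library left 7 higher members without DMSO replicate 1 (1.74% of genes), 8 without DMSO replicate 3 (2.18%), 8 without BPC replicate 1 (5.69%) and 9 without BPC replicate 3 (10.7%). The log2 change of mitfa ranged from 0.01 to 0.38 over the 13 alternatives run.

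The members also varied together between libraries of a group. All 10 were higher in BPC replicate 1 than in BPC replicate 3, by a median of 0.26 on the log2 scale, where 54.8% of tested genes were (median 0.03). In the control pair, 9 of 10 (all but tyrp1a) were higher in DMSO replicate 3 than in replicate 1, by a median of 0.19, where 54.2% of tested genes were (median 0.02). These are descriptions of single pairs of libraries with no test.

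The authors' deposited table gives its own test of the same libraries. There, a gene is marked significant at a q-value under 0.05 and a fold of at least 2, and the 9 genes other than mitfa are all marked higher, where 1.94% of the 27472 genes are. In the authors' deposited table the q-values of these 9 run from 6.15e-31 for slc45a2 to 0.000523 for slc24a5, and mitfa has a fold of 1.23 with q = 0.521. Both tests use the same libraries, so neither is independent of the other. A further table of the authors covers the single pair BPC 3 against DMSO 3. In that deposited table, the KEGG pathway tyrosine metabolism has rank 4 of 135 pathways by p (6.89e-05, 10 of its 32 genes listed), with dct, tyrp1a and tyrp1b among its 4 higher genes and 6 genes lower. In the same deposited table KEGG melanogenesis, a signalling pathway that ends in these enzymes, has rank 56 by the authors' p (0.287). Of its 133 genes 12 are listed, 4 of them higher and 8 lower. Over all genes of that deposited table, 424 of 5689 are listed.

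Other melanosome genes changed in both directions. Of 35 tested genes in a list for melanosome biogenesis and traffic, 5 rose and 6 fell on BPC, or 14.3 and 17.1% against 7.06 and 17.5% of all tested genes. The list median was -0.17, near that of all tested genes (-0.12). The list includes genes of organelle transport and sorting in many cell types, which its median does not separate from the others. The tetraspanin gene tspan36 rose from 13.1 and 15.2 FPKM in DMSO to 27.4 and 25.4 in BPC (log2 change 0.86, SE 0.12, limma adjusted p = 0.00615). Another tetraspanin gene, tspan10, was at 0.0921 and 0.191 FPKM in DMSO and 1.297 and 0.876 in BPC (log2 change 0.86). It met the filter on low values through the BPC libraries alone, so its call supports nothing, and 4 higher calls remain without it. The melanosomal receptor gene gpr143 rose from 2.61 and 2.64 FPKM to 4.71 and 4.20 (log2 change 0.59, limma adjusted p = 0.0216). The remaining higher calls, named because they complete the count, were bace2, a protease that cuts premelanosome protein, and mlpha, the melanophilin that ties melanosomes to myosin. The lower call with the smallest p was that of rab38b, a small GTPase of melanosomal cargo traffic, which fell from 2.09 and 1.47 FPKM to 0.529 and 0.508 (log2 change -0.86, limma adjusted p = 0.0129). The other lower calls were the myosin gene myo5aa (log2 change -0.51, limma adjusted p = 0.0277), vps11, vps33a, bloc1s2 and dtnbp1b. Like the higher calls, these genes are listed for a part in melanosome biogenesis or traffic. They also serve organelle transport and sorting in many cell types. These counts moved when 1 library was left out. The counts over all tested genes also fell without either DMSO library, and changed less without either BPC library. Whether the movement is particular to this list was not tested. Scaling also moved them, since 15 fell with equal totals and 1 with median centring. Of all 19873 tested genes, 7286 and 1997 were called lower under these scalings.

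Genes that specify melanophores or signal to them showed few changes. Of 16 tested, 1 was called higher and 3 lower, or 6.25 and 18.8%, both near the shares of all tested genes, with a list median of -0.15. The higher gene was hdac1, a histone deacetylase gene expressed far beyond pigment cells, at 45.5 and 50.2 FPKM in DMSO and 69.5 and 62.5 in BPC (log2 change 0.45, limma adjusted p = 0.0325). The 3 genes called lower were asip1, pomca and pmch. The agouti signalling gene asip1, whose product antagonizes the melanocortin receptor, was at 0.944 and 1.84 FPKM in DMSO and 0.319 and 0.275 in BPC (log2 change -0.86). The gene pomca, which encodes the precursor of melanocyte-stimulating hormone, fell from 1.64 and 2.29 FPKM to 0.541 and 0.926 (log2 change -0.77, limma adjusted p = 0.0265). Melanin-concentrating hormone, pmch, had 0.905 and 1.21 FPKM in the controls and was listed at 0 in both BPC libraries. Both asip1 and pmch met the filter through the DMSO libraries alone, so their calls support nothing, and 1 lower call, that of pomca, remains without them. Without DMSO replicate 1 or DMSO replicate 3 none of the 16 was called in either direction. Without BPC replicate 1, 0 rose and 1 fell. The crest regulator sox10 was at 7.98 and 7.65 FPKM in DMSO and 6.17 and 7.33 in BPC, and the receptor kinase gene kita at 3.43 and 2.88 in DMSO and 3.14 and 2.06 in BPC. Neither passed (limma adjusted p = 0.305 and 0.402), and both are named here after their values were seen, because melanophores need them. Of the 16 genes, 6 had a log2 change above 0. Among these were pax3a (0.31, limma adjusted p = 0.125) and foxd3 (0.25, limma adjusted p = 0.226), also named after their values were seen. Neither of these passed.

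**Figure D4:**
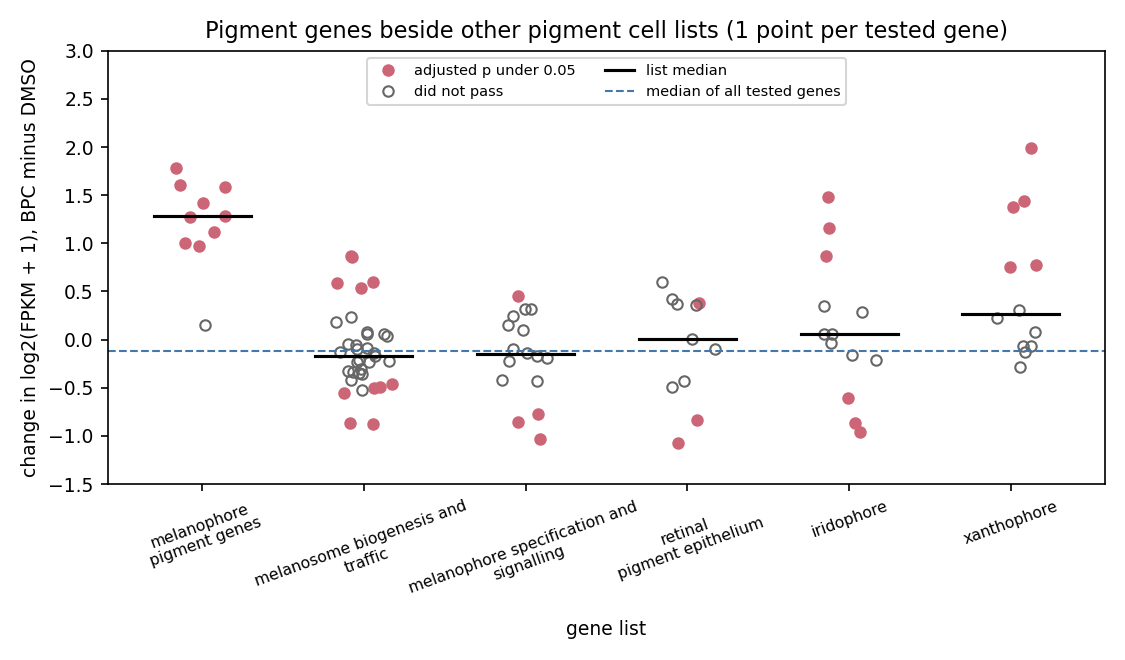
Change in log2(FPKM + 1), BPC minus DMSO (y axis), of each tested gene in the pigment gene set and in 5 further lists (x axis); filled red points passed an adjusted p under 0.05, black bars are list medians and the dashed line is the median of all tested genes. The 9 called pigment genes lie between 0.98 and 1.78, while the melanosome traffic and melanophore signalling lists centre near the dashed line.

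Markers of the other pigment cells that a whole larva holds were read beside the members. For the RPE, which makes melanin too, 11 genes were tested, of which 1 was called higher and 2 lower, or 9.09 and 18.2%, near the 7.06 and 17.5% of all tested genes. The visual cycle isomerase gene rpe65a fell from 5.86 and 8.88 FPKM in DMSO to 3.01 and 4.36 in BPC (log2 change -0.83, limma adjusted p = 0.0385). The retinaldehyde binding protein gene rlbp1a fell from 18.2 and 15.2 FPKM to 4.90 and 10.9 (log2 change -1.07, limma adjusted p = 0.0477), and the transcription factor gene otx2b rose from 20.4 and 21.4 to 26.1 and 29.1 (log2 change 0.38, limma adjusted p = 0.0472). All 3 calls are near the threshold, and without DMSO replicate 3, with no filter or with a pseudocount of 0.01 FPKM none of the RPE genes passed. Without DMSO replicate 1, 0 rose and 1 fell, and without BPC replicate 1, 2 rose and 1 fell. The list summed to 77.3 and 78.3 FPKM in DMSO and 70.6 and 88.4 in BPC, so the sum overlapped between groups. It includes otx2b and rgrb, the latter named after its values were seen. The level of rgrb was 11.96 and 11.78 FPKM in DMSO and 14.64 and 23.29 in BPC (limma adjusted p = 0.0759). Both genes lay higher in BPC while rpe65a and rlbp1a lay lower, so the overlapping sum does not show an unchanged list. Of the 11 tested genes, 6 had a log2 change above 0 (list median 0.0023). None of the list's genes was at 0 in any library, though best1 and slc16a8 stayed below the filter.

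Other neural crest pigment cells gave mixed values. Of 12 xanthophore genes, which serve the yellow pigment cells, 5 rose and 0 fell, or 41.7% higher against 7.06% of all tested genes. The fifth, named to complete the count, was aox5, and the list sum went from 96.0 and 91.8 FPKM in DMSO to 207 and 193 in BPC, with no gene at 0. The pteridine synthesis gene pts rose from 8.41 and 8.01 FPKM to 38.3 and 33.2 (log2 change 1.99, limma adjusted p = 0.000679), and gch2 from 38.8 and 32.5 to 97.2 and 90.0 (log2 change 1.37, limma adjusted p = 0.00219). The transporter genes slc2a15b and slc2a11b had log2 changes of 1.44 and 0.76 (limma adjusted p = 0.00209 and 0.00704). The regulator pax7a and the receptor gene csf1ra, which mark the lineage and are named after their values were seen, had log2 changes of -0.06 and 0.23 and did not pass (limma adjusted p = 0.749 and 0.306). Of 13 tested iridophore genes, those of the silvery cells, 3 rose and 3 fell (23.1% each way, against 7.06 and 17.5% of all tested genes). The 3 that rose, paics, atic and gart, encode enzymes of purine synthesis that dividing cells use as well, with log2 changes of 1.48, 1.16 and 0.87. Those that fell were fhl2a (log2 change -0.96, limma adjusted p = 0.00423) and, named to complete the count, gpnmb and the receptor kinase gene ltk. The list sum was 164 and 165 FPKM in DMSO and 252 and 230 in BPC. It includes paics, at 35.9 and 31.3 FPKM in DMSO and 96.1 and 94.5 in BPC. It also includes atic, at 22.2 and 19.4 in DMSO and 54.9 and 41.5 in BPC. The higher sum is therefore not a rise of the list as a whole, in which 7 of the 13 tested genes had a log2 change above 0. Without DMSO replicate 1, 3 xanthophore genes rose, without BPC replicate 3, 1 fell, and without DMSO replicate 3, 1 iridophore gene fell. The part of either cell type in the pigment gene result was not tested.

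The deposited annotations describe the members in terms close to the roles for which they were chosen, so shared terms are no separate result. The term melanocyte differentiation is attached to 8 of the 10 (not dct or pmelb) among 33 genes in the file, and melanosome organization to 5 (pmela, pmelb, tyr, tyrp1a and tyrp1b) among 8. Under melanocyte differentiation, 23 tested genes are not members. Of these, 1 rose and 3 fell (4.35 and 13.0%, against 7.06 and 17.5% of all tested genes). Under the term pigmentation, 4 of 24 tested genes that are not members rose and 4 fell (16.7% each way). Under developmental pigmentation, 0 of 18 rose and 2 fell (11.1% lower). The KEGG melanogenesis annotation holds 5 members, and of its other 123 tested genes, which include receptors, kinases and Wnt signalling genes of many tissues, 4 rose and 27 fell, or 8 and 27 with the members included. Without the members these are 3.25 and 22.0%, against 7.06 and 17.5% of all tested genes. The KEGG tyrosine metabolism annotation holds the 4 enzymes, and of its other 25 tested genes 3 rose and 12 fell (48.0% lower). These annotation counts were chosen after values had been seen and carry no test.

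Genes with a pattern like that of the members were sought among 8163 other genes with a symbol and a mean of at least 5 FPKM. Likeness was the Euclidean distance, over the 4 libraries, between a gene's log2(FPKM + 1) values less its DMSO mean and the median of the members' values. The 5 nearest were egln1b (distance 0.07), rps14 (0.12), cyp17a1 (0.13), cyt1l (0.14) and nt5c2l1 (0.14). The oxygen-sensing prolyl hydroxylase gene egln1b was at 9.07 and 10.0 FPKM in DMSO and 26.1 and 24.0 in BPC. None of the 5 is in the pigment lists. Among the members dct lay nearest to the common profile (0.09) and mitfa farthest (1.63), and 88 of the 8163 genes lay nearer than the median member. The members themselves set this profile and were not held to a mean of 5 FPKM, so that count compares unlike sets.

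**Figure D5:**
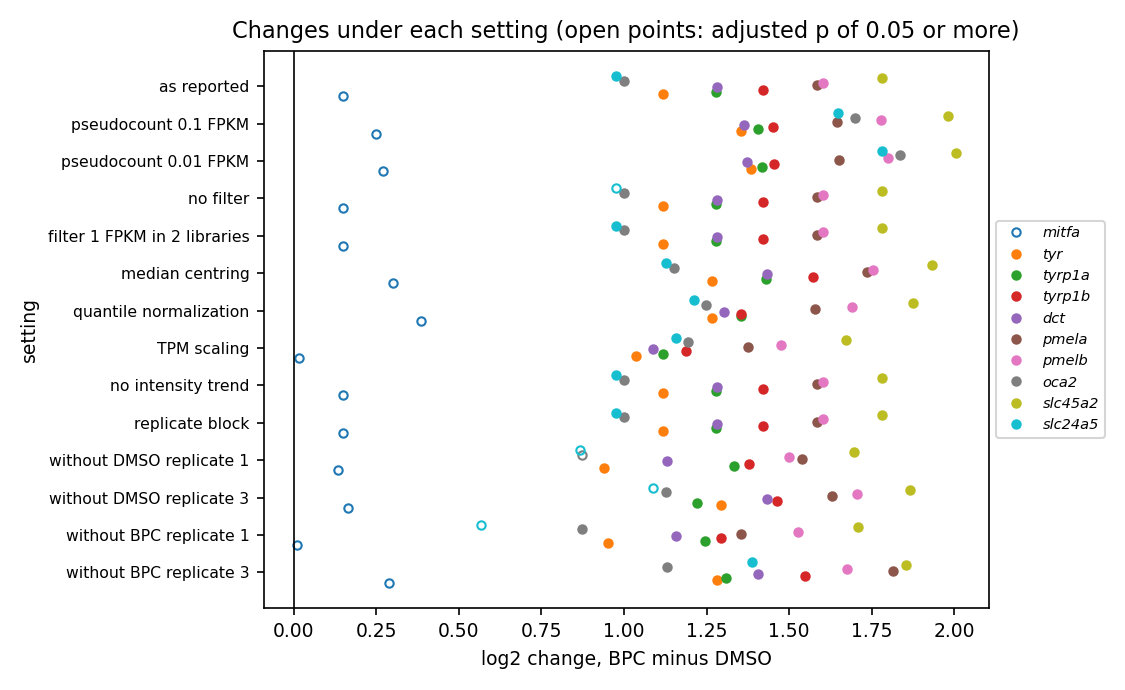
Log2 change, BPC minus DMSO (x axis), of each of the 10 genes under the reported fit and 13 alternatives (y axis), with open points for an adjusted p of 0.05 or more. Open points belong to mitfa throughout, to slc24a5 in 4 alternatives and to oca2 in 1, and every value lies above 0.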

How the data were processed

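The authors deposited FPKM values for 27472 genes in 4 libraries, per the file headers, and each column carries its sample's title (0 columns unmatched). Per the labels' protocols, polyadenylated RNA was made into paired-end, dUTP-marked Illumina libraries. The submitters' processing notes list DESeq2, edgeR, StringTie 1.3.4d, HISAT2 2.0.4 and cutadapt 1.9 without roles. Build, annotation and use of strand were not given in the sources used here. In the authors' deposited table the fold is the ratio of mean FPKM, the log2 column holds the log2 of that fold, and the p-value and q-value come from a test that is not stated. Depth is unknown because FPKM carries no read totals, so no counting intervals are given.

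limma 3.58.1 (R 4.3.3) was fitted to log2(FPKM + 1) with a group term and an intensity trend, on the 19873 genes that reached 0.5 FPKM in 2 or more libraries, with Benjamini-Hochberg adjustment over all of them and a two-sided threshold of 0.05. Alternatives changed the pseudocount, filter, scaling, trend, replicate block or 1 library, with the filter applied again to the 3 libraries left. Of 97 list symbols, 91 were matched. Members, lists and tests were chosen with earlier results of these data known. Named were all members, up to 4 genes with the smallest p per list, and the 5 nearest in pattern; others are said to be chosen later. In a RefSeq table for assembly GRCz12tu, long noncoding genes overlap pmela, slc45a2 and slc24a5, whose reads could be mixed. Promoter and protein sequences were not used here.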

Additional observations from a re-analysis of the deposited data

How the results depend on the processing

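The 9 member calls held under 8 of the 9 alternatives that keep all 4 libraries, and 8 held with no filter. Leaving out 1 library gave 7 to 9 higher calls and 0 lower calls among the members, 6 to 9 members above mitfa and a summed ratio of 2.63 to 3.21; with equal totals (TPM scaling) that ratio was 2.45. With 1 library left in a group, that library is assumed to vary like the others. The replicate block gave 9 higher members and changed no member's call, and over all genes 1333 rose and 3282 fell. Deviations of same-numbered libraries from their group means had a correlation of 0.008 over 19873 genes, and the numbers were not taken as pairs. With 2 libraries per group this check cannot exclude a clutch or batch shared by number.

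Over all genes, higher and lower calls were 1404 and 3480 in the reported fit, or 71.3% lower. They were 748 and 2020 with no filter, 2441 and 1997 with median centring (45.0% lower), 1948 and 2111 with quantile normalization (52.0%), and 759 and 7286 with TPM scaling (90.6%). Without 1 library, 329 to 2097 rose and 675 to 4146 fell, the low counts being those without DMSO replicate 1.

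List counts were small and moved. Of melanosome traffic genes, 3 rose and 1 fell with no filter, 3 and 15 with TPM scaling, and 1 or 2 fell with median centring or quantile normalization. Without 1 library 0 to 4 rose and 0 to 10 fell. Of melanophore signalling genes, 0 rose and 1 fell with no filter, 1 fell with the 1 FPKM filter, 2 rose with median centring, 2 rose and 1 fell with quantile normalization, and 0 rose and 8 fell with TPM scaling. Without 1 library 0 or 1 rose and 0 to 2 fell. Of RPE genes, 0 rose with pseudocounts of 0.1 or 0.01, no filter, TPM scaling or no trend. Median centring gave 4 higher and 0 lower, and quantile normalization 2 and 0. Lower RPE calls were 1 with a pseudocount of 0.1 or no trend and 0 with 0.01 or no filter. Without 1 library 0 to 2 rose and 0 to 3 fell. With TPM scaling 5 iridophore genes and 1 xanthophore gene fell. Without 1 library, 2 to 3 iridophore genes rose and 1 to 3 fell, and 3 to 5 xanthophore genes rose and 0 to 1 fell. The causes were not tested.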
